A study of Mus musculus with 2 samples.

Results

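The genes described here are the mouse fibroblast growth factors (FGFs), their receptors and the Sprouty and Spred inhibitors. They were taken as every gene whose symbol starts with Fgf and a digit, Fgfr, Spry and a digit or Spred and a digit and that has a protein-coding transcript. The rule found 35 genes among 55536. Another 2 matching symbols, Fgf2os and Fgfr3-ps, had no protein-coding transcript and were left out. By role, 15 are secreted ligands that act near the cell that makes them, 3 are endocrine ligands and 4 are intracellular FGFs. A further 5 are receptors, 3 are Sprouty genes and 3 are Spred genes. The remaining 2, Fgfr1op and Fgfr1op2, carry the receptor's name only because they were found fused to it, and neither encodes a ligand or a receptor.

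Secreted FGFs bind receptor tyrosine kinases at the cell surface together with heparan sulphate chains. The bound receptor recruits the adaptor Frs2 and activates the RAS-ERK cascade, and Sprouty and Spred proteins, themselves induced or activated by the signal, dampen that cascade. In the forebrain this pathway is known for patterning, for growth of the progenitor pool and for the making of glia, and in the hippocampus several ligands act on synapse formation. The intracellular FGFs are not secreted and are best known for binding voltage-gated sodium channels in neurons.

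The tissue was hippocampus of 10-day-old female mice of the strain B6CASTF1/J, a first-generation cross of a laboratory and a wild-derived strain, and its total RNA was sequenced. The series held 1 group of 2 libraries, biological replicates 1 and 2, each from 300 ng of RNA of a pool of 3 females, with differently numbered animals in each pool. No treatment or genetic change was given, and the tissue label speaks of a hippocampal layer that it does not specify. The libraries were stranded and depleted of ribosomal RNA and held ERCC spike-ins, which are synthetic RNAs added as standards.

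The libraries summed to 29858328 and 32275110 expected counts, with 0.341% and 0.393% in spike-ins. Marker lists of cell types and neighbouring regions were looked up in both libraries. Detected were 6 of 6 glutamatergic neuron genes, 6 of 6 interneuron genes, 6 of 6 astrocyte genes and 4 of 4 genes of oligodendrocyte precursors. Microglia, vessel, meninges, choroid plexus and myelin lists were likewise detected in full. So were 5 of 5 genes of neocortex and subiculum, and 4 of 5 genes of thalamus and habenula were detected. Detection alone therefore cannot tell hippocampus from neighbouring regions. A pool is a mixture of cells, so fewer cells of a type and less RNA per cell cannot be told apart in any value below.

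By summed level the intracellular FGFs and the receptors led, and the secreted ligands were scarce. Not every gene of the leading classes was abundant. Fgf14, Fgf11, Fgfrl1 and Fgfr4 each lay below Spry2 and every Spred gene in both libraries. Levels are in TPM (abundance of a transcript per unit of length and of depth), given as replicate 1 and replicate 2 or as mean ± SD (n = 2). A gene counted as detected at 1 TPM or more in both libraries, which 22 of the 35 genes reached (62.9%, against 59.1% of 22015 nuclear protein-coding genes). All 13 others stayed under 1 TPM in both libraries, and 11 genes reached 10 TPM in both. The 35 genes summed to 632 ± 3.01 TPM. Of this sum the 4 intracellular FGFs held 41.5 ± 1.60%, the receptors 27.5 ± 1.38%, the Spred genes 13.7 ± 0.32% and the Sprouty genes 7.14 ± 0.13%. The 15 secreted ligands together held 4.2 ± 0.29%, and the 3 endocrine ligands 0.0562 ± 0.01%. In the order of levels of the detected genes, 8 of 21 steps between neighbours exceeded 2 SD of their log2 ratio over the libraries. The steps at the top from Fgf13 to Fgfr1 and from Fgfr1 to Fgf12 were among them, and those from Fgf12 to Fgfr3 and from Spred1 to Spry2 were not. An SD of 2 values is itself uncertain, so a small step can pass where the libraries happen to agree. The step from Fgfr2 to Spred3 passed at log2 ratios of 0.04 and 0.02. The same limit applies to the gene pairs below.

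**Figure D1:**
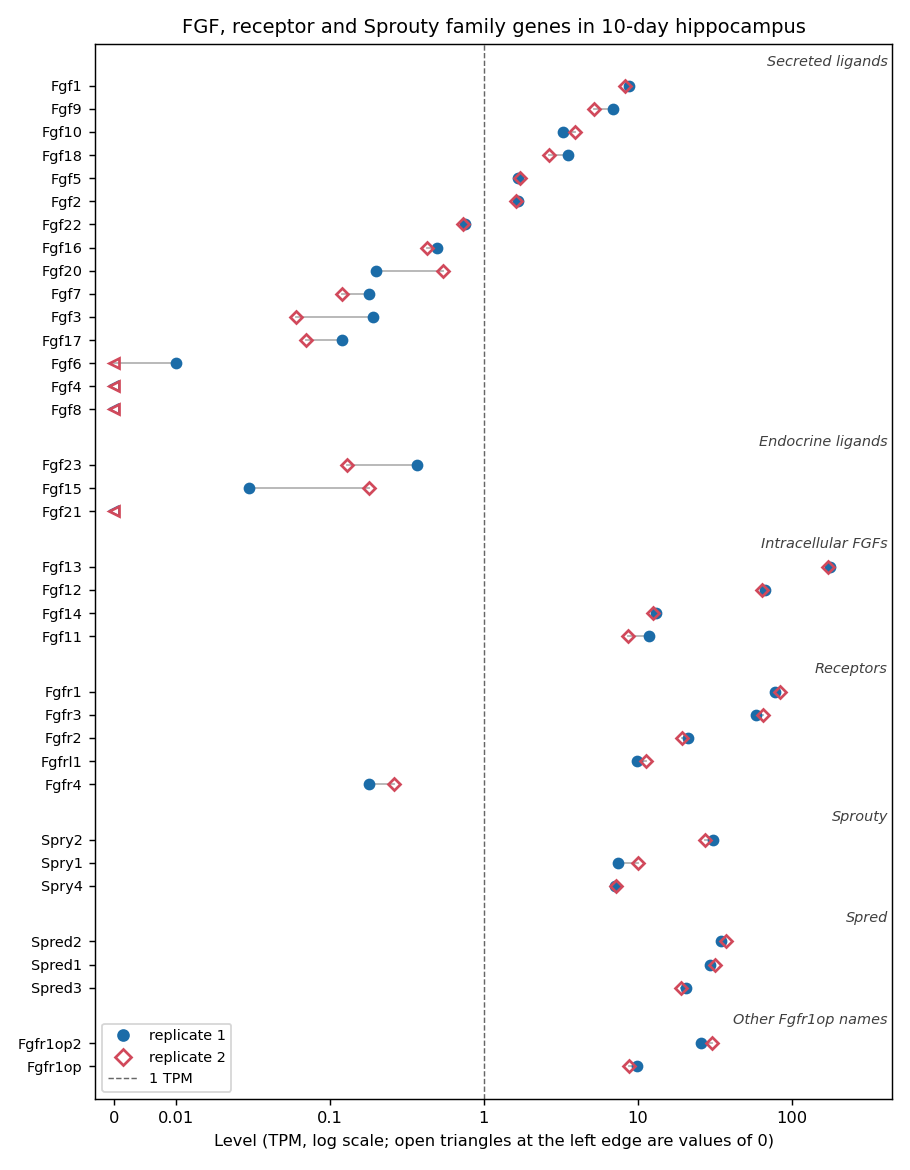
Level of each of the 35 genes in TPM on a log axis, grouped by role, with a filled circle for replicate 1 and an open diamond for replicate 2. Fgf13 lies highest, at 177 and 171 TPM, and 13 genes lie left of the dashed line at 1 TPM in both libraries.

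Among the secreted ligands, 6 of 15 were detected and none reached 10 TPM. The highest was Fgf1, a ligand that binds every FGF receptor (chromosome 18, 38838673 to 38929472), at 8.76 and 8.27 TPM. Fgf9, a ligand made by neurons, followed at 6.93 and 5.22 TPM. Fgf10, the classical ligand of the epithelial form of Fgfr2, stood at 3.25 and 3.90 TPM. Fgf9 lay above Fgf10 in both libraries, but by less than 2 SD of their ratio. Fgf18, a relative of Fgf8 and Fgf17, reached 3.53 and 2.64 TPM. Fgf5, known as a brake on hair growth, stood at 1.67 and 1.71 TPM. Fgf2, the basic FGF that expands neural progenitors in culture, was close to it at 1.68 and 1.63 TPM. Fgf5 and Fgf2 thus sat just above the detection level, and their order differed between the libraries.

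In each ligand pair compared below, the more abundant ligand was the same in both libraries. Fgf1 exceeded Fgf2 by 4.91-fold, a log2 ratio of 2.29 ± 0.03 (SD, n = 2). Fgf10 exceeded its close relative Fgf7 by 14.7-fold (3.88 ± 0.43), and Fgf9 exceeded Fgf20 of the same subfamily by 14.0-fold (3.80 ± 1.06). Fgf9 also stood above Fgf18, the relative of Fgf8 and Fgf17, by 1.94-fold, at log2 ratios of 0.95 and 0.96 in the libraries. Such ratios are of TPM plus 0.1 within each library, and a pair was called where its ratios shared a sign and their mean was over 2 SD. With a pseudocount of 1 TPM the log2 ratio was 1.99 for Fgf10 over Fgf7 and 2.37 for Fgf9 over Fgf20, so the size of both leads depended on the pseudocount. The single libraries gave 4.55 and 3.06 for Fgf9 over Fgf20, where Fgf20 had 2 and 6 counts. With 2 libraries an exact sign-flip test cannot go below 0.5, so no p is given for them.

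The other 9 secreted ligands were under 1 TPM. Fgf22, an organiser of presynaptic terminals in the hippocampus, stood at 0.75 and 0.73 TPM with 18 and 15 counts. Fgf16 reached 0.50 and 0.43 TPM with 16 and 15 counts. Fgf20 had 2 and 6 counts, Fgf7 8 and 6, Fgf3 2 and 3, Fgf17 3 and 2 and Fgf6 1 and 0. Fgf4 and Fgf8 had 0 counts in both libraries, where a count of 0 allows up to 3 counts in each. Such limits cover counting error only. In the read-based table, which estimates transcripts from reads and an index, Fgf8 was listed at 1.17 and 0.231 TPM, so its absence rested on the table used. Fgf20 went the other way, with 0.20 and 0.54 TPM in the alignment-based table and 0 in both libraries of the read-based one. Fgf22 stood at 1.34 and 1.32 TPM in the read-based table. With TPM rescaled to protein-coding genes it stood at 1.66 and 1.64 TPM, so that it was not detected rested on the table and scaling used.

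Several of these genes share exons with a gene on the opposite strand, and the sources used here do not give whether counting took strand into account. Fgf2 overlaps Nudt6, listed at 3.50 and 3.10 TPM. Fgf20 overlaps Micu3 at 36.1 and 37.3 TPM, and Fgf22 overlaps Rnf126 at 42.8 and 41.5 TPM. The levels of these 3 ligands are therefore uncertain, and the more so for Fgf20 and Fgf22, whose partners were far more abundant.

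No endocrine ligand was detected. Fgf23, the phosphate hormone of bone, stood at 0.37 and 0.13 TPM with 13 and 5 counts. Fgf15, the gut hormone that restrains bile acid synthesis, had 1 and 5 counts, and Fgf21, the fasting hormone of liver, had 0 and 0. Of the Klotho coreceptors these hormones need, Kl was at 2.22 and 2.48 TPM and Klb at 0.29 and 0.17 TPM. Both were named after their values were seen.

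Of the receptors, Fgfr1 was the most abundant, Fgfr3 came next and Fgfr2 was well below both. Fgfr1 (chromosome 8, 25513654 to 25575718), the main FGF receptor of neurons and progenitors, stood at 77.3 and 84.2 TPM. Fgfr3 (chromosome 5, 33721674 to 33737068), known in the brain from astrocytes, stood at 58.5 and 65.4 TPM. Fgfr2 (chromosome 7, 130162451 to 133123350) stood at 21.2 and 19.3 TPM. Libraries did not overlap between any pair of these 3 receptors. Fgfr1 exceeded Fgfr2 by 3.97-fold (log2 ratio 1.99 ± 0.18) and Fgfr3 exceeded Fgfr2 by 3.05-fold (log2 ratio of Fgfr2 over Fgfr3 -1.61 ± 0.20). The smaller lead of Fgfr1 over Fgfr3 was 1.30-fold (0.38 ± 0.03). In the read-based table that lead was at a mean log2 ratio of 0.20 and within 2 SD, which ends the call.

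Fgfrl1, a receptor that lacks the kinase domain, stood at 9.85 and 11.3 TPM, 7.59-fold below Fgfr1. Fgfr4, a receptor of liver and muscle, was not detected, at 0.18 and 0.26 TPM with 12 and 19 counts. Fgfr3 exceeded it by a log2 ratio of 7.61 ± 0.14 (SD, n = 2) on the scale of TPM plus 0.1 and of 5.69 with a pseudocount of 1 TPM. Fgfr2 shares exon sequence with Ctbp2, annotated on the same strand at 27.3 and 23.4 TPM, so reads could be split between them.

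Fgfr1, Fgfr2 and Fgfr3 each choose between a pair of exons for the second part of the third immunoglobulin-like domain, and that choice sets which ligands bind. The form with the upstream exon is called IIIb and is typical of epithelia, and the form with the downstream exon is called IIIc and is typical of mesenchyme and neural tissue. The pair was found from exon coordinates as neighbouring exons of similar length that transcripts carry as alternatives. The pair of Fgfr3 is shown as the example, because the IIIc share of this receptor depends most on the table used. The exons are the mm10 reference sequence of the GENCODE M21 transcripts, written 5′ to 3′ along the coding strand, with capitals at the positions that are identical in IIIb and IIIc after alignment.
Fgfr3 IIIb: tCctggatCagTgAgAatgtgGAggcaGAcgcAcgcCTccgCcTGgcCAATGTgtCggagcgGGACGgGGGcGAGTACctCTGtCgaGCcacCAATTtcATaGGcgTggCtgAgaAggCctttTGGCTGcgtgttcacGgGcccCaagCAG
Fgfr3 IIIc: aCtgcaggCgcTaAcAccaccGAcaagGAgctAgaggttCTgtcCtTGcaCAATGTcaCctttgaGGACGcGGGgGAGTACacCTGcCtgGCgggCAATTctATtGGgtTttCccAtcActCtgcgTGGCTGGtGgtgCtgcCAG
The IIIb exon of Fgfr3 lies at chr5:33731281-33731431 and its IIIc exon at chr5:33732117-33732261, both on the plus strand, with 151 and 145 bases. They were identical at 68 of 154 aligned columns (44.2%, gaps counted).

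By the deposited percent, transcripts with the IIIc exon made up most of the RNA of each receptor that could be assigned to either form. In Fgfr1 the IIIc share of transcripts with IIIc or IIIb was 100% in both libraries, with 4003 and 4854 expected counts on IIIc transcripts and 0 on IIIb transcripts. In Fgfr3 it was 98.9% and 99.1%. In Fgfr2 it was 88.0% and 87.4%, with 498 and 710 counts on IIIc transcripts against 46.9 and 64.7 on IIIb transcripts. By this measure Fgfr2 was the 1 receptor of the 3 with more than a trace of the IIIb form, which is the form that Fgf10 and Fgf7 bind. By the deposited percent its IIIb share lay on the transcript Fgfr2-208, at 4.88% and 6.72% of the gene, with the other 9 annotated IIIb transcripts at 0. The read-based table listed Fgfr2-208 at 0 in both libraries and placed the IIIb share on Fgfr2-211, at 5.59% and 9.28%, and on Fgfr2-206, at 4.02% and 0. Which IIIb transcript was present is therefore uncertain.

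These shares rest on the percent that the authors deposited for each transcript. Computed from the read-based table, the share was 69.6% and 70.7% in Fgfr3 and 81.8% and 84.3% in Fgfr2, and 100% in Fgfr1. The IIIb part of Fgfr3 was thus a trace by the deposited percent and far from one by the read-based table. In the read-based table it lay mostly on Fgfr3-213, at 17.5% and 15.4% of the gene, with Fgfr3-203 at 1.4% and 1.6%. Fgfr3-213 is annotated with 668 bases and 5 exons, against 4218 bases and 18 exons in Fgfr3-201. That larger IIIb share therefore rested mainly on 1 short transcript. Between 35.1% and 59.4% of the transcripts of these receptors carried neither exon and do not enter the share. Fgfr1-208, which carries both exons, held 1.38% and 1.59% of Fgfr1 and does not enter it either.

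**Figure D2:**
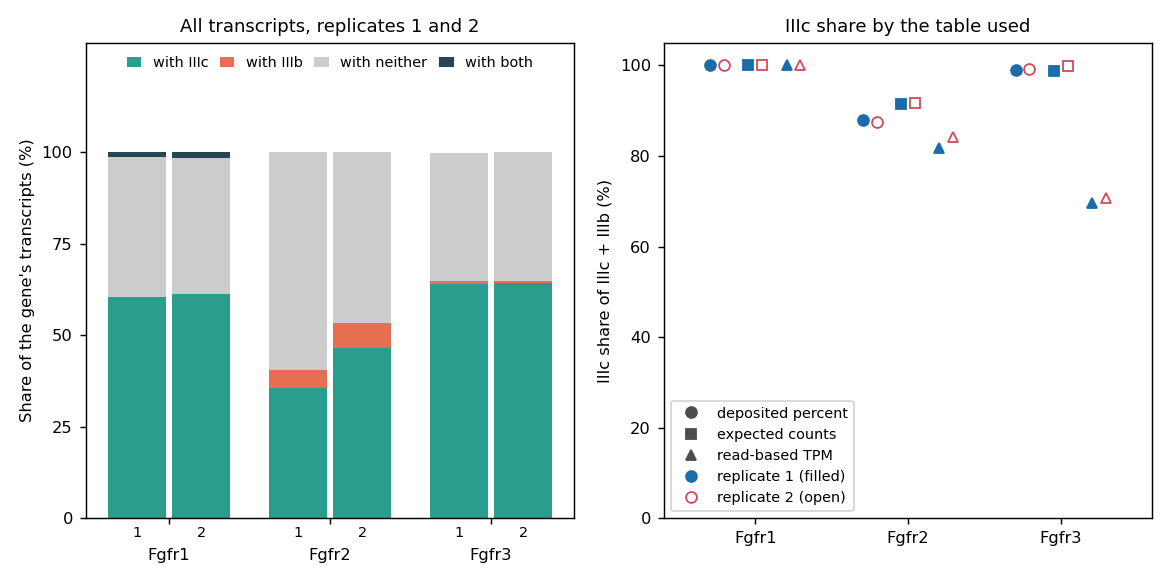
Left, share of each receptor's transcripts in percent that carry IIIc, IIIb, neither or both exons, for replicates 1 and 2. Right, the IIIc share of IIIc plus IIIb in percent by 3 measures, which stayed at 100% in Fgfr1 and stood at 69.6% and 70.7% in Fgfr3 by the read-based table.

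By the deposited percent, the leading transcripts of the receptors differed in how stable they were. Fgfr1-202, a IIIc transcript, held 42.4% and 44.9% of Fgfr1, followed by Fgfr1-201, also IIIc, at 13.3% and 13.0%. Fgfr3-201, again IIIc, held 34.1% and 36.2% of Fgfr3. In the read-based table Fgfr3-201 held 2.68% and 17.1%, and Fgfr3-210, also IIIc, held 32.4% and 16.0%. The lead of Fgfr3-201 in both libraries therefore rested on the table used. No single transcript dominated Fgfr2. By the deposited percent Fgfr2-207 held 10.0% and 24.5%, and Fgfr2-217 led in replicate 1 at 15.9%. By this measure Fgfr2 was the 1 detected gene of 22 whose leading transcript was not shared. In the read-based table it was not shared in Fgfr2, Fgfr3, Fgfrl1 and Spry1. Transcripts with a retained intron took 38.4% and 26.8% of Fgfr2, 22.5% and 20.1% of Fgfr1 and 19.1% and 20.1% of Fgfr3, again by the deposited percent. The exon for the first immunoglobulin-like domain, which is skipped in the short receptor forms, was carried by 92.1% and 94.3% of the Fgfr1 transcripts that span it and by 98.2% and 91.6% of those of Fgfr3. For Fgfr2 the values were 63.3% and 41.4%, a wide gap between the libraries.

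The intracellular FGFs were led by Fgf13 (chromosome X, 59062145 to 59568071), which steadies sodium channels and microtubules in neurons, at 177 and 171 TPM. It ranked 391 among nuclear protein-coding genes. Fgf12 followed at 67.1 and 64.0 TPM, Fgf14 at 13.0 and 12.6 and Fgf11 at 11.8 and 8.68. The order was the same in both libraries. Fgf13 exceeded Fgf12 by 2.65-fold (log2 ratio of Fgf12 over Fgf13 -1.41 ± 0.01) and Fgf14 by 13.4-fold (3.75 ± 0.001), while Fgf14 and Fgf11 did not differ beyond 2 SD (0.34 ± 0.27). The voltage-gated sodium channel subunits that these proteins bind were present, with 8 of 8 genes of the list detected. Among the most abundant were the alpha subunit Scn2a at 114 and 108 TPM, the beta subunit Scn3b at 91.5 and 94.2 and the alpha subunit Scn8a at 76.6 and 75.4.

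Intracellular FGFs are made in several forms that differ in the first coding exon, which sets the amino end and with it the action on the channel. The longest first coding exons are shown because the isoform result rests on them, for transcripts whose first coding exon has 150 bases or more. Each is the mm10 reference sequence from the start codon to the end of that exon, along the coding strand, with capitals at the 29 positions that are identical in all 5 after alignment over 228 columns.
Fgf11-202: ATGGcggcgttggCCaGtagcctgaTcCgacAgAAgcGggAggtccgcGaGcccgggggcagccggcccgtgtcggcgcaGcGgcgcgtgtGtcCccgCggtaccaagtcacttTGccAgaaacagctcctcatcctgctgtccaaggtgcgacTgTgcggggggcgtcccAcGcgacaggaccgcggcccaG
Fgf12-201: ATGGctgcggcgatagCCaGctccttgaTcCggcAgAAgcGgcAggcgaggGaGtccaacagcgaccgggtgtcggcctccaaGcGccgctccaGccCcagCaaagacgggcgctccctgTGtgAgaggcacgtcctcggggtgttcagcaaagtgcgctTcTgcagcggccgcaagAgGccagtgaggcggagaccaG
Fgf13-201: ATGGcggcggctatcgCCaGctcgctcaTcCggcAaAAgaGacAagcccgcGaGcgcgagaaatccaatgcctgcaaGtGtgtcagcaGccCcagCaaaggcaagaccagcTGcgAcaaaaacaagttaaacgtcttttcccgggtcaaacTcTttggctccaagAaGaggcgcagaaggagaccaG
Fgf14-202: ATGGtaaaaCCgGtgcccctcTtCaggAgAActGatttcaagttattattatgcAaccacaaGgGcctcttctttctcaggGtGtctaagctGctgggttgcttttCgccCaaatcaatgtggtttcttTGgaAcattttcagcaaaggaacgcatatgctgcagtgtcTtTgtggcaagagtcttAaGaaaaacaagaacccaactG
Fgf14-201: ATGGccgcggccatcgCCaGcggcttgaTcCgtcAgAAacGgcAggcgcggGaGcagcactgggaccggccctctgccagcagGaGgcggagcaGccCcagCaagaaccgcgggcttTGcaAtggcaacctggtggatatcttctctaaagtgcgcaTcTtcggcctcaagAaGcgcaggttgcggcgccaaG
They lie at chr11:69801433-69801625, chr16:28444993-28445191, chrX:59133877-59134063, chr14:124676510-124676717 and chr14:124192329-124192521 in that order, all on the minus strand. The exons of Fgf11-202, Fgf12-201, Fgf13-201 and Fgf14-201 resembled each other, with 46.9% to 65.8% of aligned positions identical in each pair. The exon of Fgf14-202, known as form 1b, shared 28.9% to 32.0% with any of them. Its closest match was not Fgf14-201 of the same gene, which at 28.9% was the least alike.

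Form 1b was the main form of Fgf14. Fgf14-202 held 88.1% and 87.0% of the gene's transcripts, and Fgf14-201, known as form 1a, held 11.9% and 13.0%. The read-based table gave 87.5% and 86.2% for Fgf14-202, and shares of expected counts 89.4% and 88.4%. In Fgf13 the S form, Fgf13-201, held 90.6% and 91.2% by the deposited percent and 97.7% and 98.1% of counts. In the read-based table it held 59.3% and 60.5%, with 30.9% and 30.2% on transcripts without a coding sequence. Fgf13-201 led in every measure, but the size of its lead depended on the table.

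Fgf12 was the gene in which the measure decided the order. Fgf12-205, a short form whose first coding exon has 13 bases and is known as B, held 49.6% and 51.3% of the transcripts. Fgf12-201 and Fgf12-204, which start with the long exon of the A form shown above, held 16.9% and 16.3% together. By expected counts the non-coding transcripts led with 40.9% and 40.3%, the A-type transcripts held 37.0% and 36.3% and Fgf12-205 held 20.1% and 21.4%. The A-type transcripts thus exceeded Fgf12-205 in counts and fell below it per length. Non-coding transcripts of the gene took 28.4% and 27.3% by the deposited percent.

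**Figure D3:**
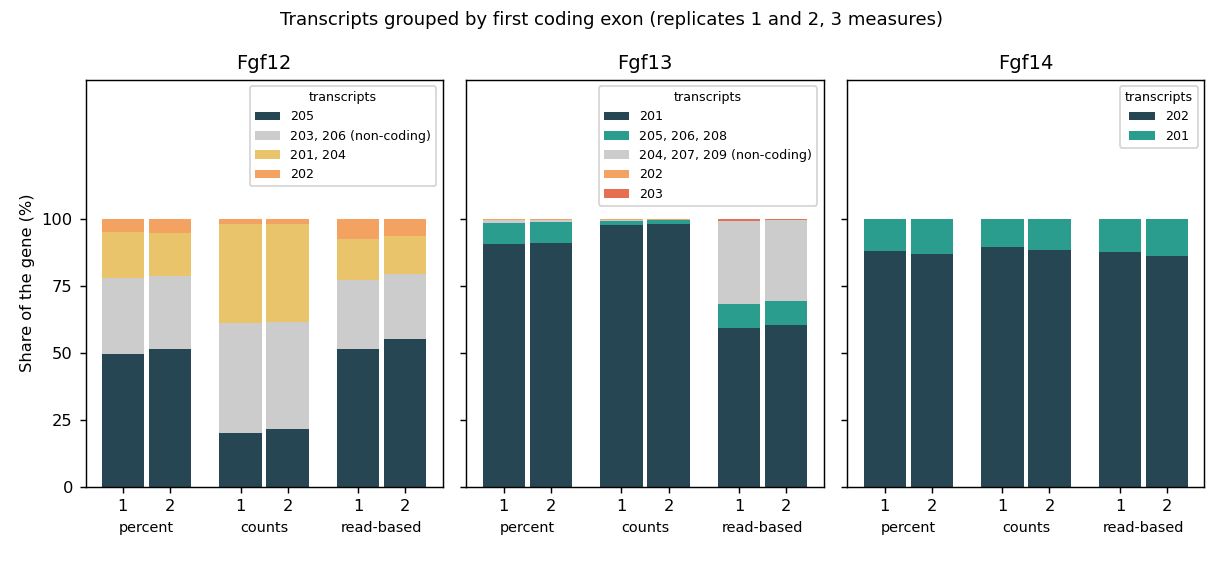
Transcripts of Fgf12, Fgf13 and Fgf14 grouped by first coding exon, as a share of the gene in percent for replicates 1 and 2 by the deposited percent, by expected counts and by the read-based table. Fgf14 has nearly the same shares by each measure, while Fgf12-205 leads at 49.6% and 51.3% by percent and holds 20.1% and 21.4% of counts.

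The Sprouty genes encode inhibitors that act between the receptor and RAS. Spry2 (chromosome 14, 105891947 to 105896819) was the highest at 30.9 and 27.4 TPM. Spry1 stood at 7.47 and 9.96 TPM and Spry4 at 7.15 and 7.25. Spry2 exceeded Spry1 by 3.35-fold (log2 ratio 1.74 ± 0.41) and Spry4 by 4.0-fold (2.00 ± 0.14), and its libraries did not overlap with those of either. Spry1 and Spry4 did not differ beyond 2 SD (0.26 ± 0.28). All 3 transcripts of Spry1 carry the same coding sequence, so a flip between Spry1-202 and Spry1-201 as leading transcript in the read-based table left the protein the same.

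The Spred genes encode membrane relatives of Sprouty that recruit neurofibromin to switch RAS off. Spred2 stood at 34.7 and 37.4 TPM, Spred1 at 29.6 and 31.8 and Spred3 at 20.5 and 19.0. The order was the same in both libraries, with Spred2 over Spred1 by 1.17-fold (log2 ratio of Spred1 over Spred2 -0.23 ± 0.002) and over Spred3 by 1.82-fold (0.86 ± 0.15). Together the 3 Spred genes summed to 86.5 ± 2.46 TPM and the 3 Sprouty genes to 45.1 ± 0.64 TPM. Spred1-201 held 94.3% and 95.5% of Spred1, while Spred2 was split between Spred2-202 at 57.6% and 50.6% and Spred2-201 at 42.0% and 48.8%.

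Of the genes with the receptor's name only, Fgfr1op2 stood at 25.8 and 30.2 TPM and Fgfr1op, a centrosome protein, at 9.95 and 8.80 TPM. Fgfr1op2 overlaps Ints13 on the opposite strand, listed at 17.9 and 14.5 TPM, and its level is uncertain.

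The genes around these members in the pathway were largely present, with 62 of 64 listed genes detected. In the list of coreceptors and binding proteins, 15 of 17 were detected, led by the adhesion molecule Ncam1 at 259 and 208 TPM and the heparan sulphate carrier Sdc3 at 161 and 134 TPM. The 2 that were not were Klb and Fgfbp1, named after their values were seen, the latter at 1.05 and 0.79 TPM. Heparan sulphate enzymes were detected in 12 of 12, led by the sulphatase Sulf2 at 84.2 and 91.4 TPM and the sulphotransferase Ndst1 at 75.7 and 82.4 TPM. Adaptors and the RAS-ERK cascade were detected in 23 of 23, with a median of 53.9 and 50.7 TPM. Feedback genes and targets were detected in 12 of 12 at medians of 14.6 and 14.8 TPM. Their highest were Dusp6, the ERK phosphatase, at 34.3 and 36.6 TPM and the transcription factor Etv1 at 31.8 and 28.7 TPM. The median of the cascade was above that of its feedback genes in both libraries.

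**Figure D4:**
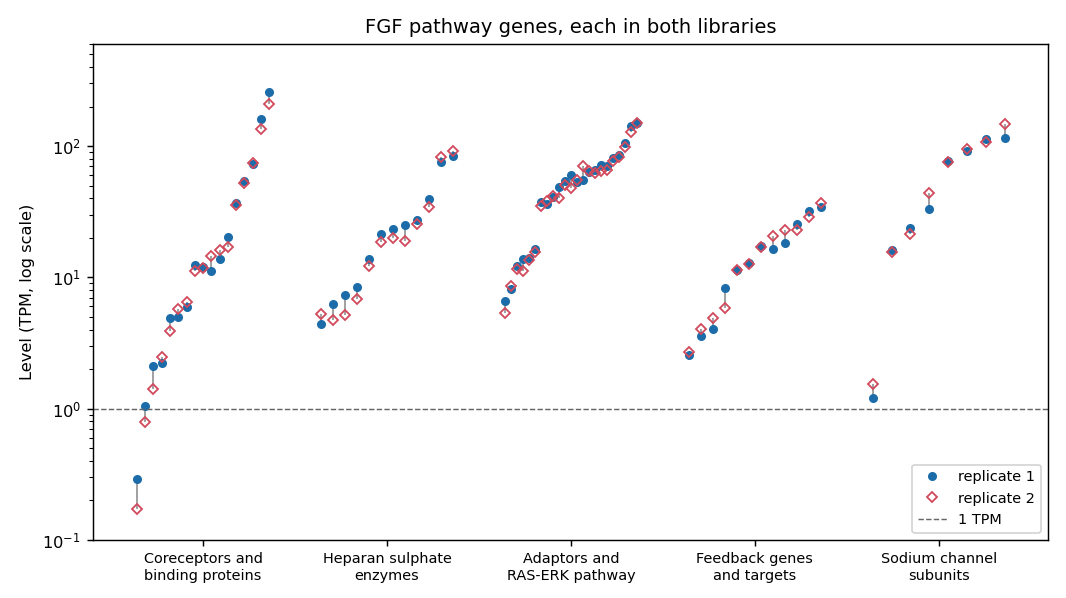
Level in TPM on a log axis of the genes of 5 lists, ordered within a list, with filled circles for replicate 1 and open diamonds for replicate 2. Only Klb and Fgfbp1 fall under the dashed line at 1 TPM in either library.

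The libraries were close for these genes, and the differences that passed the test were small. Replicate 2 was compared with replicate 1 by an exact two-sided binomial test on rounded expected counts with TMM library sizes and Benjamini-Hochberg adjustment over all 20544 genes tested. It compares 2 libraries with no replicate check, so its p-values cover counting error and not the spread between pools. Of 27 members tested, none was called at an adjusted p under 0.05 with a log2 ratio of 1 or more, against 2.85% of all genes tested. At an adjusted p under 0.05 alone there were 11 (also 11 at an unadjusted p under 0.05), which is 40.7% of those tested against 27.4% of all genes. Of these 10 were higher in replicate 2, where 16.3% of all genes passed, and 1 was higher in replicate 1, where 11.2% did. The median log2 ratio was 0.13 over the members and 0.03 over tested protein-coding genes.

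The highest ratio of a detected gene was that of Spry1, with 375 and 540 counts and a log2 ratio of 0.50 ± 0.10 (counting SE), at an adjusted p of 2.78e-06 by the binomial test. All 3 detected kinase receptors were among the 10. Fgfr1 had 5003 and 6043 counts and a log2 ratio of 0.24 ± 0.03, with an adjusted p of 2.13e-17 by the same exact test. Fgfr3 had a log2 ratio of 0.18 ± 0.03 and Fgfr2 of 0.28 ± 0.06. The others were Fgf1, Fgf10, Fgf13, Spred1, Spred2 and Fgfr1op2, at log2 ratios of 0.06 to 0.37. Fgf11 was the 1 gene that was higher in replicate 1, with 665 and 548 counts and a log2 ratio of -0.31 ± 0.08, at an adjusted p of 0.0016 by the binomial test.

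The direction of these small differences depended on the scaling. With libraries scaled to the ERCC spike-ins, the median of tested protein-coding genes moved from 0.03 to -0.26, and at an adjusted p under 0.05 then 0 members were higher in replicate 2 and 11 in replicate 1. The members' median moved with it, from 0.13 to -0.16. A change of scaling shifts every log2 ratio by the same amount, so it cannot test the members against other genes. With total counts 6 members were higher in replicate 2 and 2 in replicate 1. Fgf11 was lower in replicate 2 and Spry1 had a ratio above 0 under each scaling run. Counts and TPM parted for Fgfr2, whose counts were 920 and 1135 while its TPM was 21.2 and 19.3, beside the shift of its transcripts to Fgfr2-207. Fgf13 and Fgf1 likewise had lower TPM in replicate 2 with a ratio of counts above 0.

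**Figure D5:**
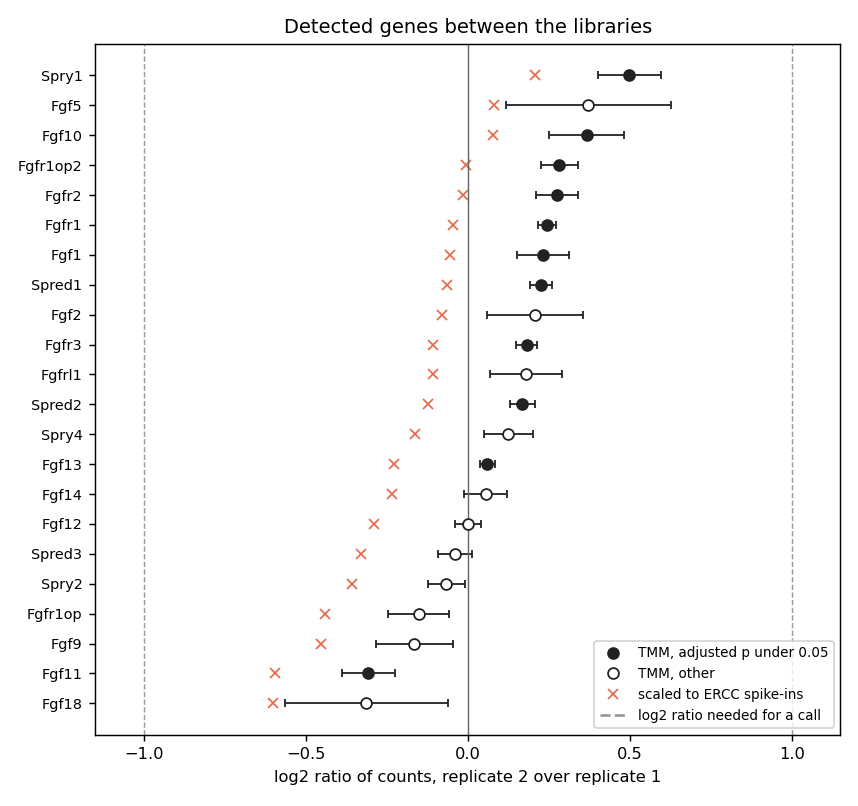
Log2 ratio of counts, replicate 2 over replicate 1, for the 22 detected genes with TMM scaling (circles, filled where the adjusted p is under 0.05, bars are the counting SE) and with ERCC scaling (crosses). No circle reaches the dashed lines at a log2 ratio of 1, and the crosses lie to the left of the circles.

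Cell type markers also differed between the pools. All 6 of 6 genes of the myelin list were called higher in replicate 2, with a summed level of 194 and 570 TPM and none at 0, among them Mbp at 80.5 and 253 TPM. Pvalb, a marker of fast-spiking interneurons, was also called higher in replicate 2, with 53 and 148 counts and a log2 ratio of 1.45. No other gene of the neuron and astrocyte lists was called. At an adjusted p under 0.05 alone, 4 of 6 glutamatergic, 5 of 6 interneuron and 5 of 6 astrocyte genes were higher in replicate 2 with TMM scaling. With ERCC scaling 2, 2 and 1 of these genes were higher in replicate 2 and 2, 1 and 4 were higher in replicate 1. Summed levels were 1899 and 2289 TPM for the glutamatergic list, 349 and 387 for the interneuron list and 1344 and 1503 for the astrocyte list, with none at 0. In the choroid plexus list 2 of 5 genes were higher in replicate 2 at that threshold, among them Ttr with 9486 and 16511 counts, and with ERCC scaling 1 was higher in each replicate. The sums of this list were 443 and 691 TPM. Of the lists of neighbouring regions, 1 of 5 genes of thalamus and habenula (Gbx2) and 1 of 5 of neocortex and subiculum (Tshz2) were called higher in replicate 1. Their summed levels were 94.3 and 77.4 TPM and 143 and 91.9 TPM, with none at 0. The part of these cell types in the small differences of Fgfr1, Fgfr2, Fgfr3, Spry1 and Fgf11 was not tested. Of the 64 pathway genes none was called, against 2.85% of all genes tested. At an adjusted p under 0.05 alone 18 were higher in replicate 2 (28.1%, against 16.3% of all genes) and 8 in replicate 1 (12.5%, against 11.2%). With ERCC scaling these counts were 3 and 48, and with total counts 8 and 19, so the direction of this list depended on the scaling too.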

How the data were processed

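RNA was measured by total RNA sequencing in 2 libraries of 1 group. Per the files' own notes, genes and transcripts were estimated by the authors on mouse build mm10 with GENCODE M21. The sources used here do not name the programs or say whether strand was used. Columns follow the layout of RSEM in the alignment-based tables and of kallisto in the read-based table. The deposited expected counts are reads estimated for a gene or transcript, without normalization, and so are the estimated counts deposited in the read-based table. The deposited TPM scales abundance per length to a fixed total over every entry, with the spike-ins counted in. The deposited FPKM is scaled by effective length and by the number of reads, and served in 1 alternative. The deposited percent is each transcript's share of its gene's abundance.

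From these, detection was set at 1 TPM in both libraries, pair ratios used a pseudocount of 0.1 TPM, and IIIc shares and first-exon shares were sums of the deposited percent over transcripts grouped by exon coordinates. Replicates were compared on rounded expected counts with TMM sizes from edgeR 4.0.16, for genes with 10 or more summed counts and a pseudocount of 0.5 counts. The test between libraries was tried on simulated counts with known changes and no spread beyond counting error. The pair rule and the grouping of transcripts were not tried in this way. The 26345 entries without a gene name, spike-ins included, held 0.341% and 0.393% of counts and were left out of sizes and tests. Exons were aligned with MAFFT 7.526, and R 4.3.3, DESeq2 1.42.0 and Python 3.11.15 were used. The sequences are those of the reference strain, while the mice were hybrids. Allele-specific values are not analysed here. RefSeq promoters were not used here, and some exon sequences and list genes are not reported here.

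The members and the lists were chosen with earlier results of these data known. Named were every member and up to 4 of the most abundant genes of each list by mean TPM and any called between the libraries, and any other name is marked as picked with its values known. Alternatives were the read-based table, FPKM, other pseudocounts, filters, detection levels and scalings, and leaving out each library.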

Additional observations from a re-analysis of the deposited data

How the results depend on the processing

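The number of detected members, 22, was 23 in the read-based table, with TPM rescaled to protein-coding genes and at 0.5 TPM, and 25 at 10 counts in each library. Leaving out either library gave 22 members and 62 to 63 pathway genes. Members called between the libraries went from 0 to 1 in the read-based table (Fgf8) and to 11 by the adjusted p alone, and stayed at 0 with DESeq2 size factors, ERCC totals, total counts and no filter. Genes called in all went from 585 to 1276 with ERCC totals. Of 19 gene pairs, 16 were called, 15 in the read-based table and 16 with FPKM or a pseudocount of 1 TPM. The leading transcript was shared for 21 of 22 members and for 18 in the read-based table. The IIIc share of Fgfr2 moved from 87.7% to 83.1% in the read-based table and to 91.5% by expected counts, the latter chosen after seeing the data. For Fgfr3 it moved from 99.0% to 70.2% and 99.4%. The median member TPM was 6.08, was 8.60 in the read-based table and ran from 5.22 to 6.93 with 1 library left out. The cause of these moves was not tested. Detected members were 1.56 times as high in the read-based table (1.32 to 2.06), near the 1.57 of all detected protein-coding genes. No paired analysis was possible because the series has 1 group, and the comparison of the libraries cannot be run with 1 left out. Members below about 10 counts are limited by depth.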
